A study of Macaca mulatta with 5 samples.

Results

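Axon guidance ligands and receptors were followed as a group of 40 genes in single nuclei of macaque claustrum tissue. The genes were listed by name and found by their symbol in the feature tables of all 5 libraries, where all 40 of 40 matched among 21761 gene identifiers. They comprised 9 semaphorin ligands, 8 plexin or neuropilin receptors, 3 slit ligands, 3 robo receptors, 2 netrin ligands, 5 netrin receptors, netrin-G1, 7 Eph receptors and 2 ephrin ligands. The claustrum is a narrow band of neurons lying deep to the insula and lateral to the putamen. Nuclei came from frozen claustrum of 2 healthy, untreated male rhesus macaques, and libraries were made with the 10x Genomics 3' V3 kit, which counts RNA molecules near their 3' ends by unique molecular identifiers (UMIs). There were 2 libraries from the 17-month and 3 from the 18-month animal, so each age is 1 animal and libraries of an animal are repeats on it. No treatment, transgene or genetic change is named in the labels, and both animals share sex, tissue and protocol.

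Guidance molecules steer growing axons and migrating cells by attraction or repulsion. Secreted class 3 semaphorins act through neuropilins with plexins, slits repel through robo receptors, netrin-1 attracts through DCC and repels through UNC5 receptors, and ephrins signal by contact through Eph receptors. Many of these genes stay transcribed in the grown brain, where they are known for roles in synapses, myelination and blood vessels. RNA level in a nucleus does not say how much protein reaches the axon, and all values below are RNA.

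After filtering, 37091 of 40005 nuclei were kept, and the libraries held 47512670 to 70896967 UMIs. Any pair of libraries shared between 11 and 39 barcodes. Classes were built from genes that included none of the 40 guidance genes and none of the markers, and were then named by markers. Excitatory neurons fell into 5137 claustrum-like nuclei (excitatory clusters 1, 2, 4, 6 and 11, scored on claustrum markers such as NR4A2, GNB4 and SYNPR) and 3350 other excitatory nuclei. The other excitatory class held 523 layer 6 corticothalamic (CT)-like, 278 layer 6b-like and 230 layer 4/5 intratelencephalic (IT)-like nuclei, and otherwise unnamed clusters, among them the large clusters 3 and 5. Clusters 1 (1532 nuclei) and 4 (1318 nuclei) had 5 and 6 of the 6 claustrum markers on, but 0 of them and 1 marker of another class, CUX2, among their 10 leading genes. Both comparisons of claustrum-like neurons, with other excitatory neurons and between animals, are therefore also given for clusters 2, 6 and 11 alone (2287 nuclei), an alternative chosen after seeing the data. There were also 2914 inhibitory nuclei, 1604 striatal projection neurons, 14516 oligodendrocytes, 2061 oligodendrocyte precursors, 142 committed precursors, 1183 astrocytes, 2830 microglia, 572 endothelial nuclei and 176 mural or fibroblast nuclei. Levels are counts per 1000000 UMIs (CPM) of the summed counts of a class in a library, as mean ± SD over libraries. Because 3' counts depend on the gene's own 3' end, levels are compared between classes for 1 gene and not between genes.

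The 40 genes were spread over the whole tissue. By mean CPM over 11 classes, 6 genes each were highest in claustrum-like neurons, in other excitatory neurons and in striatal projection neurons. Committed precursors and the mural or fibroblast class were the highest class of 5 genes each, endothelial cells of 4, oligodendrocyte precursors of 3, astrocytes and inhibitory neurons of 2 each, and oligodendrocytes of 1. For 12 of 40 genes the libraries of the highest class did not overlap those of the next class. The same count was not made over all genes, so it does not set the list apart. The 12 genes included NTN1 in oligodendrocyte precursors, DCC in oligodendrocytes, ROBO1 in inhibitory neurons and EPHA7 in striatal projection neurons. Also among them were NRP1 in endothelial cells, and EPHA4 and PLXNC1 in claustrum-like neurons.

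**Figure D1:**
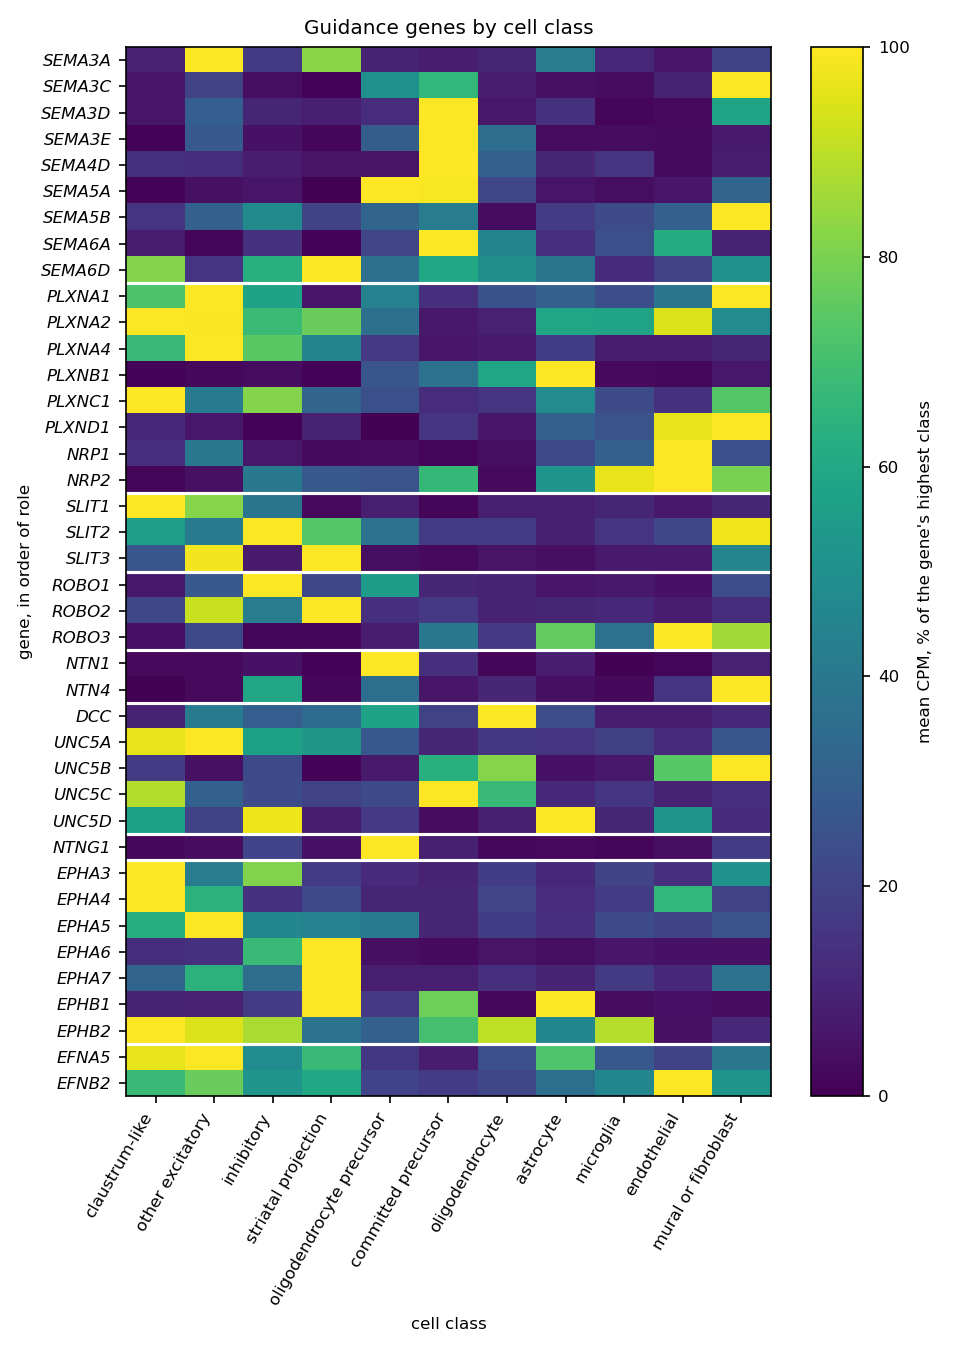
Mean level of each of the 40 genes (rows, by role) in 11 cell classes (columns), as a percentage of the gene's own highest class. Claustrum-like and other excitatory neurons differ for SEMA3E, SLIT3, SEMA6D and the robo receptors among others, and NTN1 and NTNG1 stand out in oligodendrocyte precursors.

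The first comparison asked which guidance genes set claustrum-like neurons apart from the other excitatory neurons of the same libraries. Secreted semaphorins and all 3 robo receptors were lower in claustrum-like neurons, while the transmembrane semaphorins SEMA6A and SEMA6D and 3 UNC5 receptors were higher. Of 39 genes tested (PLXNB1 was too low), 6 were higher and 14 lower where a call took an edgeR adjusted p under 0.05 and a log2 fold change of 1 or more in size. Of all 10848 genes tested 3.24% were higher and 3.79% lower. Of the 7030 tested genes that, like the guidance genes, were never offered to clustering, 4.24% were higher and 5.14% lower. The median log2 fold change was -0.22 over the tested members and -0.0013 over all genes. All 20 called genes had the same direction in 5 of 5 libraries and no overlap between the classes. The calls came from these same libraries, so this describes the called genes and is no separate support.

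SEMA3E, a secreted semaphorin that binds plexin-D1 directly, was at 8.19 and 7.59 CPM in the 17-month libraries and at 5.43, 7.63 and 5.88 CPM in the 18-month libraries of claustrum-like neurons. In the other excitatory neurons it was at 151 and 256 CPM and at 221, 286 and 308 CPM. Every claustrum-like library was thus below every other one, with a log2 fold change of -5.13 ± 0.22 (SE, n = 5 libraries, edgeR adjusted p = 5.96e-05). The libraries are repeats on the same animals. Here and in all later cell type comparisons, SEs and p-values therefore measure the spread between libraries, not between animals. SEMA3A, the classical repellent of the neuropilin-1 and plexin-A complex, was at 12.2, 7.81, 5.14, 11.7 and 20.8 CPM in claustrum-like neurons and at 96.2, 124, 99.01, 151 and 156 CPM in the others, in the same order of libraries. Its log2 fold change was -3.51 ± 0.25 (edgeR adjusted p = 0.000446). SEMA3D, at 1.31 ± 0.172 against 6.34 ± 1.59 CPM, and SEMA3C, at 12.5 ± 4.30 against 41.6 ± 6.93 CPM, were lower too, so that all 4 class 3 semaphorins on the list were lower. SEMA5A, a transmembrane semaphorin, was also lower, with 18.9 ± 11.4 against 75.5 ± 19.96 CPM.

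The semaphorins of class 6, membrane proteins that bind plexin-A receptors, went the other way. SEMA6D was at 180, 183, 168, 164 and 164 CPM in claustrum-like neurons and at 41.8, 41.4, 20.95, 30.98 and 21.7 CPM in the others, a log2 fold change of 2.48 ± 0.18 (edgeR adjusted p = 0.000421). SEMA6A was at 64.8 ± 11.7 against 15.4 ± 3.65 CPM (log2 fold change 2.07 ± 0.097, edgeR adjusted p = 3.48e-07). The libraries were far apart for both genes. Among the semaphorin receptors, PLXNC1, the receptor of SEMA7A, was higher at 156 ± 18.8 against 64.6 ± 5.98 CPM. NRP1 was lower at 47.4 ± 8.88 against 139 ± 23.9 CPM, and NRP2 was lower at the low levels of 1.95 ± 1.22 against 6.32 ± 1.43 CPM.

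All 3 robo receptors were lower by similar factors. ROBO2 was at 1696, 1831, 1501, 1716 and 1909 CPM in claustrum-like neurons and at 7013, 7771, 7036, 7525 and 7612 CPM in the other excitatory neurons. No library came near the other class, and the log2 fold change was -2.11 ± 0.044 (edgeR adjusted p = 3.59e-12). ROBO1 was at 158 ± 37.5 against 677 ± 102 CPM (log2 fold change -2.12 ± 0.056, edgeR adjusted p = 1.15e-10). ROBO3, which in mammals responds to NELL2 and not to slits, was lower at 0.966 ± 0.745 against 4.42 ± 1.51 CPM. Of the slits, SLIT3 was lower at 366 ± 153 against 1352 ± 110 CPM (log2 fold change -1.98 ± 0.24, edgeR adjusted p = 0.00325), while SLIT1 and SLIT2 passed in neither direction. SLIT3 was among the 10 leading genes of a broad cluster of other excitatory neurons, although it was not used to form it.

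Of the 5 netrin receptors 3 were higher, 1 was lower and UNC5A, at 65.7 ± 7.37 against 67.96 ± 5.18 CPM, overlapped and did not pass. DCC, the attractive netrin receptor, was at 442, 251, 84, 204 and 330 CPM in claustrum-like neurons and at 1415, 1176, 981, 1122 and 1123 CPM in the others, a log2 fold change of -2.33 ± 0.34 (edgeR adjusted p = 0.00617). Claustrum-like libraries were spread more widely, relative to their mean, than for ROBO1 or ROBO2, yet none overlapped the other class. UNC5C, a repulsive netrin receptor, was at 1267, 1210, 1298, 1476 and 1721 CPM against 497, 496, 453, 486 and 478 CPM (log2 fold change 1.52 ± 0.087, edgeR adjusted p = 7.13e-06). UNC5D, which also binds FLRT proteins, was at 831 ± 76.4 against 298 ± 92.2 CPM and UNC5B at 19.4 ± 4.13 against 5.16 ± 1.46 CPM, both higher. NTN4, a netrin of basement membranes, was lower at 1.37 ± 0.265 against 4.55 ± 2.39 CPM. Of the 9 listed Eph and ephrin genes, EPHA7 alone passed, lower at 118 ± 28.03 against 236 ± 18.5 CPM (log2 fold change -1.03 ± 0.11, edgeR adjusted p = 0.000671).

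**Figure D2:**
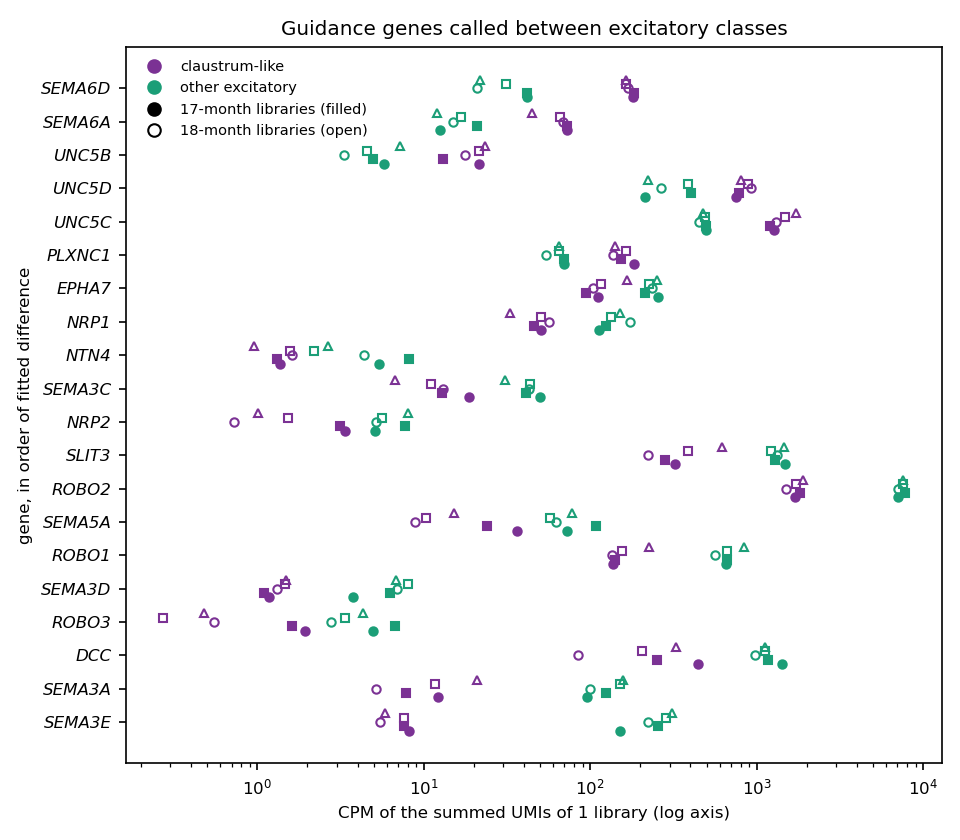
Level in each library (CPM, log axis) of the 20 called genes in claustrum-like (purple) and other excitatory neurons (green), with filled points for the 17-month and open points for the 18-month animal. The colours do not overlap for any of the 20 genes, which were called on these same libraries.

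Part of this pattern rests on which excitatory neurons serve as the reference. Against the named deep-layer and IT-like clusters alone, SLIT3 was at -1.12 (edgeR adjusted p = 0.0538), UNC5D at 0.94 and PLXNC1 at 0.89, all no longer called, and PLXNA4 (1.47) and EPHA4 (1.55) were called higher. Against the unnamed clusters 3 and 5 alone, ROBO3 at -0.42 (edgeR adjusted p = 0.352) and NRP2 at -1.13 (edgeR adjusted p = 0.12) were lost and EPHA3 was called higher at 1.99. With clusters 2, 6 and 11 as the only claustrum-like neurons, 5 genes were higher and 14 lower of 39, and 6.75% of 10386 genes were called in either direction. EPHA7 (-0.65) and PLXNC1 (0.87) then lay under the fold threshold, SEMA5B was called lower at -1.55, and the other 18 genes kept their direction and call. EPHA7 lay at the fold threshold in the whole class, and without 17-month library 1, without 17-month library 2 or without 18-month library 1 it stood at -0.97, -0.99 and -0.99. Summed oligodendrocyte markers stood at 1.31% of their oligodendrocyte level in claustrum-like and at 1.57% in other excitatory neurons. Of 67 further pathway genes, 57 were tested, 5 were higher and 3 lower. NTNG2, netrin-G2, was at 722 ± 57.7 against 100.1 ± 7.51 CPM and EPHA10, an Eph receptor without kinase activity, at 50.3 ± 4.67 against 17.0 ± 2.63 CPM. FARP1, an intracellular effector on the pathway list, was lower at 59.9 ± 6.55 against 208 ± 20.2 CPM and SEMA4G at 5.22 ± 0.661 against 14.0 ± 2.48 CPM.

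Excitatory clusters differed further among themselves, described here without a test. SEMA3A was highest in layer 6b-like neurons, at 705, 686, 826, 727 and 685 CPM, against 169 ± 21.9 CPM in CT-like neurons. SEMA3E stood at 822 ± 85.6 CPM in layer 6b-like and 790 ± 118 CPM in CT-like neurons, with overlapping libraries, and at 30.7 CPM in cluster 3. The sizes of the pooled SEMA3E and SEMA3A folds thus rest in part on these named clusters. For SEMA3E, cluster 3 stood closer to the claustrum-like level than the pooled class did. ROBO2 reached 13520 ± 1613 CPM in layer 6b-like and 11670 ± 1113 CPM in CT-like neurons. PLXNA4, a plexin that signals for class 3 and class 6 semaphorins, ran opposite, at 45.7 ± 34.9 and 99.3 ± 17.7 CPM there against 787 CPM in cluster 3. DCC was at 1657 ± 135 CPM in CT-like and 1868 ± 466 CPM (n = 4) in layer 4/5 IT-like neurons but at 179 ± 107 CPM in layer 6b-like neurons. SEMA5B, at 133 ± 35.3 CPM, and NRP1, at 372 ± 47.9 CPM, were higher in CT-like than in layer 6b-like and IT-like libraries without overlap.

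Within the claustrum-like neurons, Eph receptors differed by cluster. EPHA6 was at 400, 415, 340, 308 and 263 CPM in cluster 1, against 48.2 ± 26.8 CPM in cluster 2 and 40.4 ± 29.9 CPM in cluster 4. EPHA3 was at 263 ± 136 CPM in cluster 1, 210 ± 95.9 CPM in cluster 4 and 322 ± 204 CPM in cluster 11, and at 77.8 ± 33.2 and 64.6 ± 33.8 CPM in clusters 2 and 6. The wide SDs of EPHA3 had 1 order: 18-month library 3 was the highest and 17-month library 2 the lowest in all 5 clusters, as also for EPHA4. EFNA5, an ephrin ligand of both receptors, was highest in 18-month library 1 and lowest in 18-month library 3 in all 5 clusters. SEMA3E stayed between 3.61 and 10.95 CPM in every library of the 5 clusters.

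**Figure D3:**
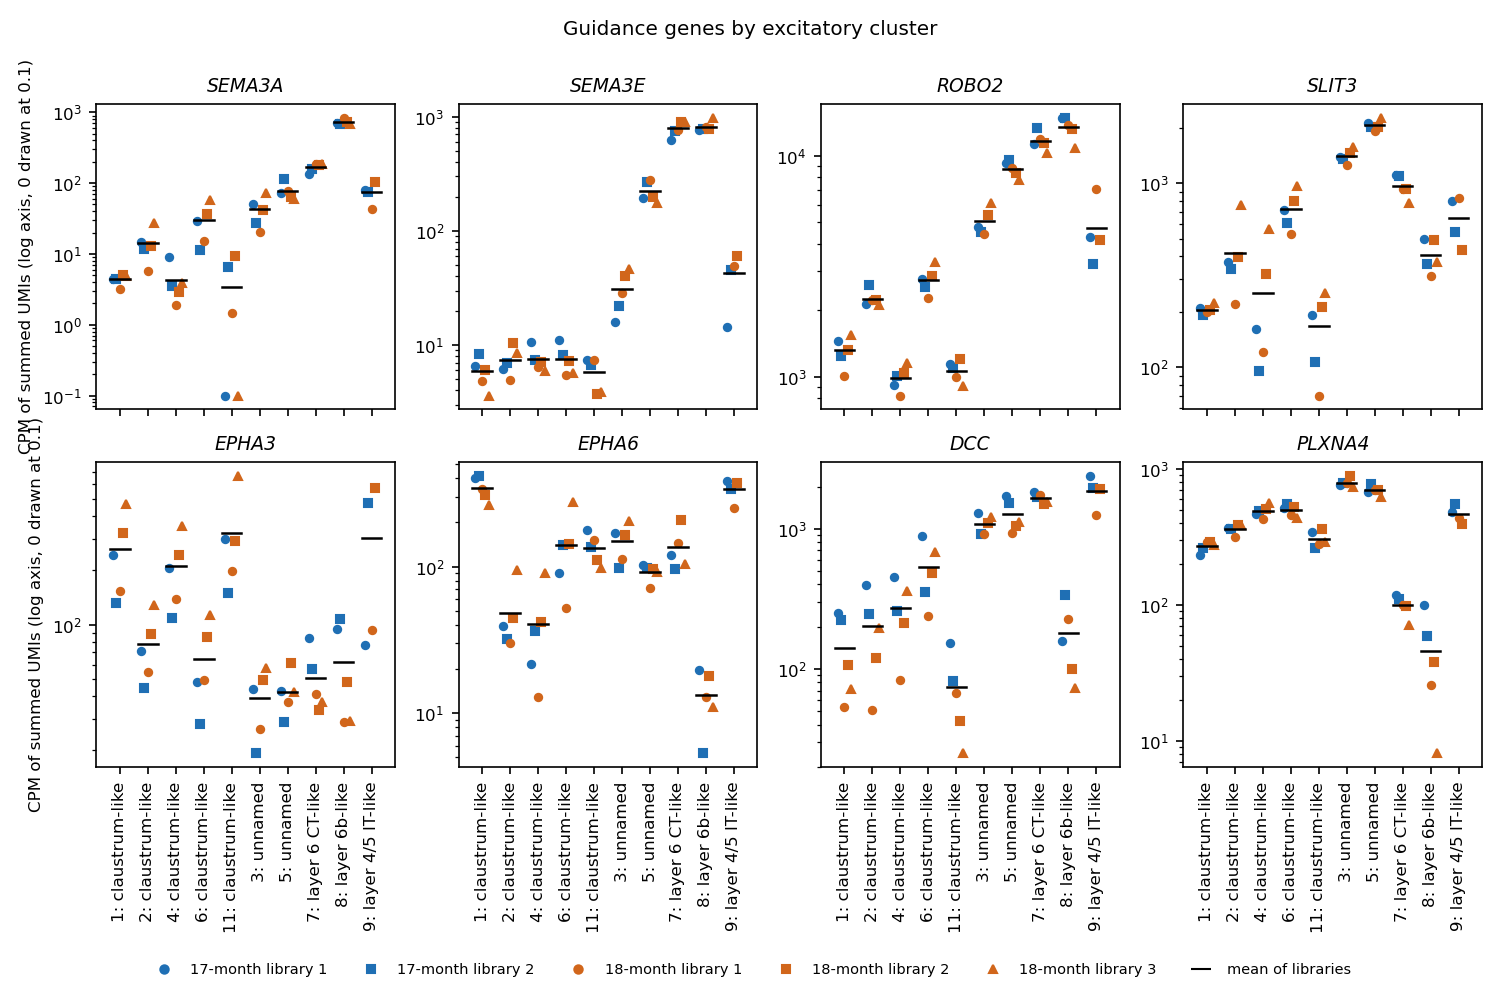
Level in each library (CPM, log axis, zeros drawn at 0.1) of 8 genes over the claustrum-like clusters 1, 2, 4, 6 and 11 and the other excitatory clusters 3, 5, 7 (CT-like), 8 (layer 6b-like) and 9 (IT-like). SEMA3E is low in all 5 claustrum-like clusters, and EPHA3 and EPHA6 separate claustrum-like clusters from each other.

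Excitatory and inhibitory neurons divided the list almost evenly, with 11 genes higher and 9 lower in excitatory neurons of 39 tested, where 7.14% of all genes were higher and 6.62% lower, and 8.62% each way of genes never offered to clustering. Secreted netrin-4 marked the inhibitory side: NTN4 was at 124, 133, 83.3, 96.6 and 87.3 CPM in inhibitory and at 2.99, 4.11, 2.51, 1.84 and 1.51 CPM in excitatory neurons (log2 fold change -5.30 ± 0.10, edgeR adjusted p = 1.52e-12). NRP2, the neuropilin that prefers SEMA3C and SEMA3F, was at 55.7 ± 13.2 against 3.56 ± 1.06 CPM, and ROBO1 at 2421 ± 102 against 354 ± 53.4 CPM, both without overlap. NTNG1, EPHA6, SEMA5A, SEMA6A, UNC5D and SEMA5B were also lower in excitatory neurons, with log2 fold changes from -2.96 to -1.11. NTNG1 was not high throughout the inhibitory class: the unnamed inhibitory cluster 2 held 3262 of its 5000 UMIs there. Neurons of the PVALB and SST types together were at 22.6 ± 1.49 CPM, near the 23.9 ± 7.27 CPM of excitatory neurons.

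On the excitatory side, EPHA4, the Eph receptor that binds ephrins of both classes, was at 540, 481, 560, 549 and 618 CPM against 104, 104, 77.7, 98.0 and 82.8 CPM in inhibitory neurons (log2 fold change 2.62 ± 0.13, edgeR adjusted p = 7.81e-06). SLIT3 was at 738 ± 113 against 102 ± 25.1 CPM, SLIT1 at 378 ± 39.5 against 158 ± 21.8 CPM and NRP1 at 81.1 ± 9.59 against 21.6 ± 2.06 CPM. PLXND1, the SEMA3E receptor, was called with 5.62 ± 1.61 against 0.564 ± 0.171 CPM, and ROBO3 with 2.28 ± 1.06 against 0.276 ± 0.265 CPM, on 15 and 7 UMIs in all inhibitory nuclei. SEMA3A, SEMA3C, SEMA3E, UNC5C and EFNA5 were higher with log2 fold changes from 1.03 to 1.75. The SEMA3A and SEMA3E calls rested on the other excitatory neurons, with means of 125.2 and 244.4 CPM. Claustrum-like neurons, pooled into the same class, were at 11.52 and 6.944 CPM, below inhibitory neurons at 21.38 and 44.04 CPM. For SEMA3C, UNC5C and EFNA5 the claustrum-like mean was above the inhibitory mean. EFNA5 fell under the fold threshold without 17-month library 2 (0.99) and without 18-month library 1 (0.91). Among 59 other pathway genes 11 were higher and 5 lower, led by NTNG2 (log2 fold change 4.73) and NTN5 (3.16) and by SEMA4G (-1.96) and EPHA8 (-1.79).

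Inhibitory neurons of the caudal eminence type (CGE-like, 713 VIP-like and 375 LAMP5 or SNCG-like nuclei) were set against those of the medial eminence type (MGE-like, 688 PVALB-like and 403 SST-like nuclei). Of 36 genes tested, 10 were higher and 4 lower in CGE-like neurons, with 3.17% of all genes higher and 3.06% lower, and 4.71% and 4.14% of genes never offered to clustering. UNC5D, UNC5B, SLIT2 and EPHA6 were lower in CGE-like neurons. UNC5D was at 1852, 1973, 1916, 1749 and 1878 CPM in MGE-like and at 325, 348, 241, 275 and 364 CPM in CGE-like neurons (log2 fold change -2.59 ± 0.068, edgeR adjusted p = 6.25e-25). The SLIT2 levels were 618, 655, 567, 544 and 468 CPM against 112, 88.8, 124, 170 and 146 CPM (log2 fold change -2.13 ± 0.21, edgeR adjusted p = 0.00175). EPHA6 at 818 ± 71.9 against 222 ± 73.2 CPM and UNC5B at 38.4 ± 7.995 against 10.1 ± 1.34 CPM completed the lower genes. The other UNC5 receptors had the opposite sign and stayed under the fold threshold, UNC5A at 27.4 ± 2.13 CPM in MGE-like against 48.6 ± 4.02 CPM in CGE-like neurons (log2 fold change 0.87, edgeR adjusted p = 5.17e-08) and UNC5C at 259 ± 46.4 against 381 ± 58.4 CPM (0.58, edgeR adjusted p = 0.00323).

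SEMA3E was at 24.4, 49.6, 79.9, 62.03 and 73.5 CPM in CGE-like and at 8.90, 16.8, 8.74, 10.4 and 5.62 CPM in MGE-like neurons (log2 fold change 2.58 ± 0.30, edgeR adjusted p = 0.000343). NTNG1, a membrane-anchored netrin-G that binds LRRC4C, was higher at 91.0 ± 35.3 against 22.6 ± 1.49 CPM. By type it was at 180 ± 97.4 CPM in LAMP5 or SNCG-like and at 33.8 ± 7.26 CPM in VIP-like neurons. The VIP-like libraries overlapped those of PVALB-like neurons, at 30.9 ± 2.59 CPM. NRP2, SLIT3, EPHA4 and EPHB1 were called higher as well, with log2 fold changes of 1.99, 1.65, 1.29 and 1.25. SEMA5B (2.27) lost its call without 18-month library 1 (edgeR adjusted p = 0.0866), and SEMA5A (1.17) lost it without any 1 of the 18-month libraries (edgeR adjusted p = 0.062 to 0.0659). SEMA3C overlapped between the classes and lost its call without 17-month library 1, 17-month library 2 or 18-month library 1, with log2 fold changes of 0.62, 0.87 and 0.91. NRP1, at 1.00, stood at the threshold and passed in 1 of the 5 fits that left out a library, the one without 18-month library 2. Of 49 other pathway genes 6 were higher, led by DSCAM (2.84) and NELL2 (2.49), and 1 was lower, EPHB6 (-3.27).

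Subtypes added detail that the pooled classes hide. ROBO1 was highest in SST-like neurons, at 4108, 4580, 4007, 4074 and 4344 CPM, above every library of the VIP-like (2758 ± 240 CPM), PVALB-like (1279 ± 312 CPM) and LAMP5 or SNCG-like (1067 ± 160 CPM) types, the last 2 of which overlapped. DCC and ROBO2 had the same highest type, with 2036 ± 160 and 8035 ± 657 CPM in SST-like neurons. SEMA6A overlapped between SST-like (256 ± 50.4 CPM) and LAMP5 or SNCG-like neurons (259 ± 28.6 CPM) and was low in PVALB-like neurons (18.6 ± 7.38 CPM). EPHB1 was at 215 ± 25.3 CPM in VIP-like and 8.76 ± 5.21 CPM in SST-like neurons. SLIT2 was at 700 ± 98.5 CPM in PVALB-like against 349 ± 48.3 CPM in SST-like neurons. Among unnamed clusters, inhibitory cluster 2 held NTNG1 at 1130 ± 133 CPM, inhibitory cluster 6 held EPHA6 at 2669 ± 893 CPM, and inhibitory cluster 10 was led by UNC5B at 346 ± 47.4 CPM (n = 4).

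**Figure D4:**
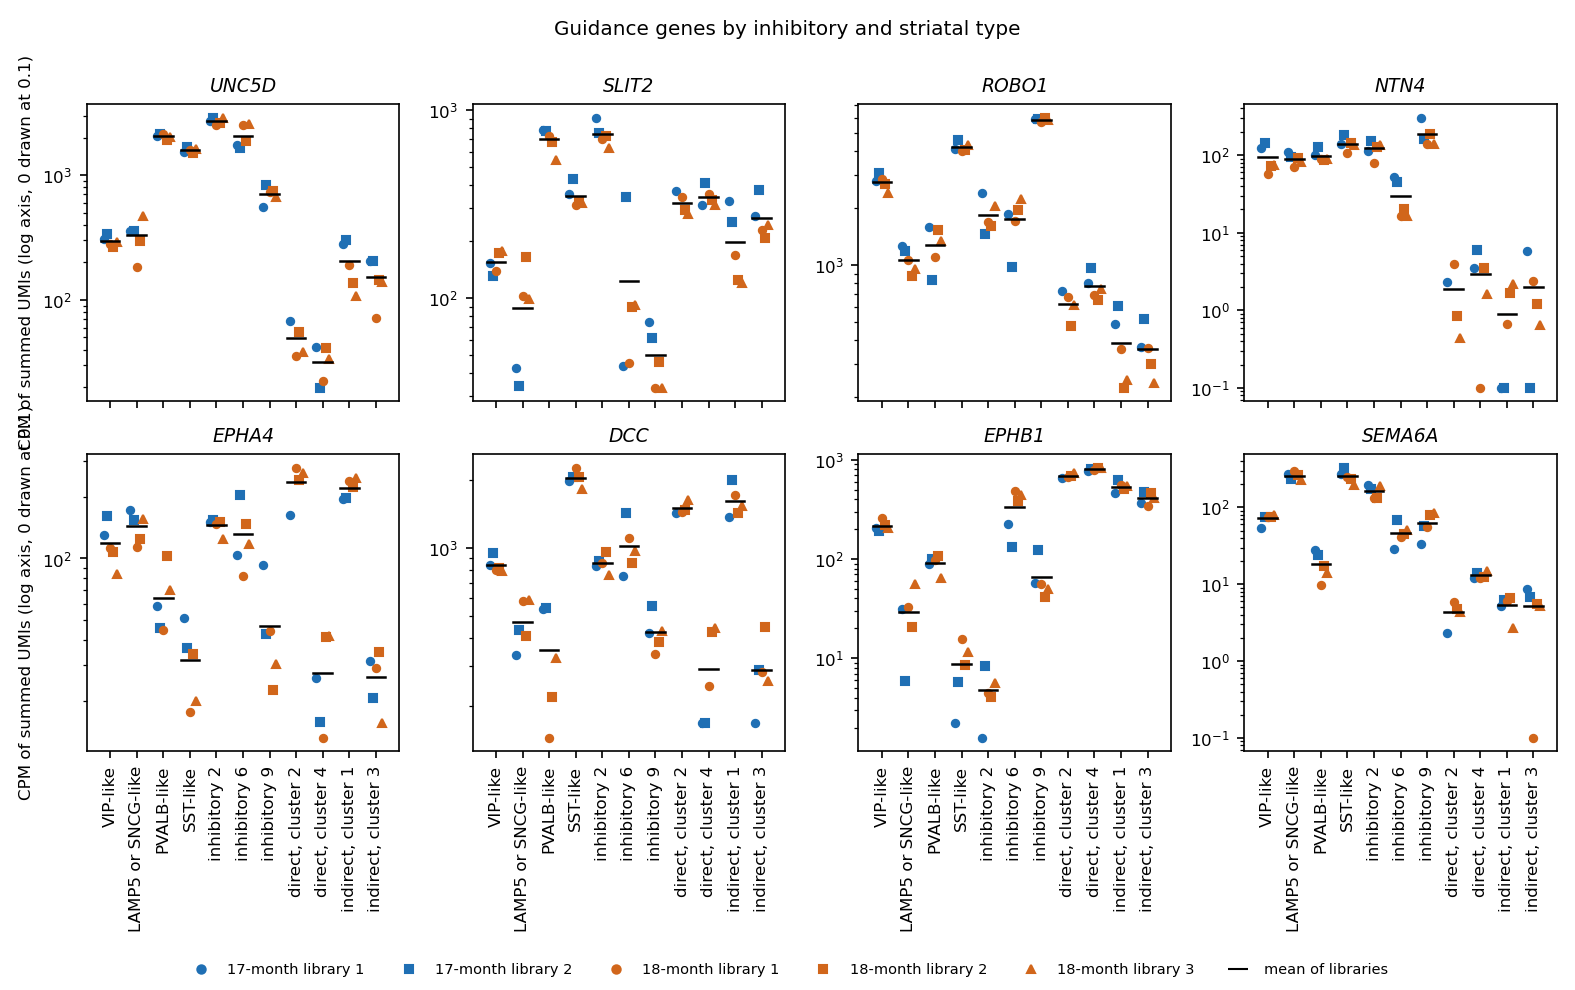
Level in each library (CPM, log axis, zeros drawn at 0.1) of 8 genes in inhibitory types and unnamed inhibitory clusters and in the direct (clusters 2 and 4) and indirect (clusters 1 and 3) striatal neurons. UNC5D and SLIT2 are high in PVALB-like and SST-like neurons, and DCC and EPHA4 split the striatal clusters 1 and 2 from 3 and 4.

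Striatal projection neurons, GABA-releasing output cells of the neighbouring striatum named here by PDE10A and RGS9 among others, were set against excitatory and inhibitory neurons together, by the average of the log levels of both, while the means quoted are of CPM. Of 38 genes tested 8 were higher and 15 lower, against 8.16% higher and 11.8% lower of all genes, and 9.18% and 15.3% of genes never offered to clustering. SLIT1 had the lowest log2 fold change of the called genes, at 16.9, 13.2, 6.35, 10.8 and 3.20 CPM against a mean of 268 ± 27.0 CPM (log2 fold change -4.61 ± 0.22, edgeR adjusted p = 3.25e-08). PLXNA1, a receptor subunit for class 3 semaphorins, was at 2.35 ± 0.622 against 26.7 ± 3.47 CPM. UNC5B, UNC5D, SEMA5A, SEMA6A, NTN4, SEMA3C, SEMA3E, EPHA3, NRP1, NTN1, EPHB2 and PLXNC1 were lower too, from -3.40 to -1.08. The SEMA3D call (-1.05) overlapped and was lost without 18-month library 1, 2 or 3 (-0.92, -0.58 and -0.80).

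EPHB1, an ephrin-B receptor, was at 544, 628, 585, 588 and 621 CPM in striatal neurons against a mean of 81.3 ± 6.07 CPM (log2 fold change 3.12 ± 0.13, edgeR adjusted p = 1.33e-08). SLIT3 at 1378 ± 49.4 against 420 ± 68.1 CPM and its receptor ROBO2 at 8067 ± 374 against 3648 ± 187 CPM were both higher without overlap. Both overlapped the other excitatory neurons taken alone, at 1352 ± 110 and 7392 ± 346 CPM. Claustrum-like neurons, pooled into the excitatory class, were at 366 and 1731 CPM. EPHA6 (1.94), EPHA7 (1.53), SEMA3A (1.76), PLXND1 (2.05) and NRP2 (1.51) were the other higher genes. PLXND1 and NRP2 overlapped, and their means did not exceed both classes: PLXND1 was at 5.45 CPM in striatal against 5.62 CPM in excitatory neurons, and NRP2 at 38.7 CPM against 55.7 CPM in inhibitory neurons. Of 56 other pathway genes 6 were higher and 17 lower, led by SRGAP1 (3.69), a GTPase activator of robo signalling, and SEMA3F (2.87), and by FARP1 (-4.82) and EPHB3 (-4.11). Summed excitatory markers stood in striatal nuclei at 42.1% and inhibitory markers at 54.5% of their own class, the latter being genes that GABA-releasing neurons share.

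Direct and indirect pathway neurons, the DRD1 and DRD2 types, differed in few genes, with 0.548% higher and 0.304% lower in the direct type of all genes tested and 0.728% and 0.413% of those never offered to clustering. Of 32 guidance genes tested 4 were higher and 1 lower in the direct type. SEMA5B was at 50.9, 46.4, 22.2, 24.98 and 31.2 CPM in direct and at 3.69, 17.3, 2.60, 1.93 and 4.22 CPM in indirect neurons (log2 fold change 2.92 ± 0.21, edgeR adjusted p = 9.49e-16). Most of it came from striatal cluster 4, at 72.8 ± 15.4 CPM, since the other direct cluster, 2, stood at 2.42 ± 1.53 CPM (n = 4). UNC5D was lower at 39.6 ± 11.5 against 177 ± 57.0 CPM (log2 fold change -1.93 ± 0.18, edgeR adjusted p = 0.00114), and NRP1 was higher at 14.96 ± 2.69 against 5.44 ± 2.42 CPM. ROBO1 (1.02) and SEMA3E (1.16) overlapped. ROBO1 lay under the fold threshold without 18-month library 2 (0.995) and without 18-month library 3 (0.89), and SEMA3E lost its call without 18-month library 1 (0.68, edgeR adjusted p = 0.0822). One of 42 other pathway genes was called, DSCAM (2.21).

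For some genes, chosen after they were seen, another split among striatal neurons ran across these types. It is described without a test, and its size was not compared with that of the direct and indirect types. DCC was at 1605 ± 253 CPM in cluster 1 (indirect) and 1493 ± 94.3 CPM in cluster 2 (direct, n = 4), against 288 ± 100.1 CPM in cluster 3 (indirect) and 289 ± 136 CPM in cluster 4 (direct). EPHA4 followed the same clusters, with 221 ± 23.3 and 237 ± 50.5 CPM against 26.3 ± 7.89 and 27.6 ± 13.6 CPM. No library of clusters 1 and 2 overlapped one of clusters 3 and 4 for either gene.

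Among glia, astrocytes, oligodendrocytes, their precursors and microglia were each set against the mean of the other 3 classes in 1 fit, with 39 genes tested (SEMA3D was too low). The fold change sets a class against the average of the log levels of the other 3, while the means quoted beside it are of CPM, so 1 high class weighs more in the mean. Summed excitatory markers were present in these nuclei at 28.9% of their excitatory level in precursors, 34.4% in astrocytes, 42.5% in oligodendrocytes and 52.0% in microglia, and the part of such RNA in glial levels was not tested.

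Oligodendrocyte precursors had 12 genes higher and 6 lower, against 9.43% higher and 7.13% lower of all genes and 11.2% and 9.17% of those never offered to clustering. NTN1, the netrin ligand of DCC and UNC5 receptors, was at 386, 423, 454, 471 and 493 CPM there, at 35.7 ± 5.50 CPM in astrocytes, 5.41 ± 1.27 CPM in oligodendrocytes and 2.70 ± 1.94 CPM in microglia (log2 fold change 5.88 ± 0.093, edgeR adjusted p = 1.24e-25). NTNG1 was at 798, 787, 1075, 1011 and 1021 CPM against a mean of 18.6 ± 3.05 CPM (5.78 ± 0.14, edgeR adjusted p = 1.79e-15). Both genes were among the 10 leading genes of the precursor cluster, which was formed without them. SEMA5A (3.84), SEMA3C (3.56), ROBO1 (3.03) and NTN4 (3.00) followed, with ROBO1 at 1329 ± 80.3 against 186 ± 57.0 CPM. PLXND1, called on 3 UMIs in all precursors, ROBO3 (-2.19, on 11 UMIs), NRP1 (-1.94), SEMA4D (-1.63), EPHB2 (-1.17) and EFNA5 (-1.08) were lower. EPHB1 (1.02) was called higher although precursors, at 97.7 ± 21.1 CPM, lay below the mean of the other glia, 208 ± 9.82 CPM, which astrocytes raise. It fell under the threshold without 18-month library 1 or 3 (both 0.90). Of 50 other pathway genes 14 were higher, led by DSCAM (4.75) and DSCAML1 (2.87), and 8 lower, led by SEMA4A (-3.06) and SEMA4B (-1.62).

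Oligodendrocytes had higher levels of the netrin receptors DCC, UNC5B and UNC5C than the mean of the other glia. DCC was at 2844, 2916, 2753, 2640 and 2812 CPM, above the precursors at 1614 ± 56.5 CPM and the mean of the other glia at 830 ± 27.6 CPM (log2 fold change 2.26 ± 0.18, edgeR adjusted p = 4.39e-08). UNC5B was at 87.3, 97.01, 90, 93.5 and 89.4 CPM against 7.08 ± 3.30 CPM (3.75 ± 0.15, edgeR adjusted p = 9.22e-16), and UNC5C at 1061 ± 304 against 260 ± 56.8 CPM. UNC5D, in contrast, was lower at 124 ± 46.4 against 623 ± 34.6 CPM. SEMA4D, a class 4 semaphorin whose receptor is plexin-B1, was at 233 ± 19.4 against 76.9 ± 3.17 CPM. In all 8 genes were higher and 8 lower, against 8.02% higher and 11.7% lower of all genes and 9.07% and 14.9% of those never offered to clustering. The lower genes were led by NRP2 (-4.27), EPHB1 (-3.06) and SEMA5B (-2.82). SEMA6D (1.01) fell just under the threshold without 17-month library 1 (0.9996), 18-month library 1 (0.99) or 18-month library 3 (0.99). Of 50 other pathway genes 10 were higher, led by DPYSL5 (3.73) and CHN2 (2.92), and 11 lower, led by FARP1 (-3.02) and PLXNB2 (-2.62).

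Committed precursors, the cells between both stages, were the highest class for SEMA3E (870 ± 274 CPM), SEMA4D (753 ± 285 CPM), SEMA6A (803 ± 295 CPM), UNC5C (1574 ± 639 CPM) and SEMA3D (n = 4 each). The first 2 did not overlap the next class, oligodendrocytes. The class held 142 nuclei in all, and 17-month library 1, with 15, was under the minimum of 20. In 18-month library 1 the class stood apart, with EPHB1 at 0 CPM against 432 to 714 CPM, SEMA5A at 334 against 1775 to 2678 CPM and NTN1 at 7.43 against 66.4 to 93.4 CPM in the other libraries.

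Astrocytes had 11 genes higher and 9 lower, against 11.1% higher and 7.76% lower of all genes and 13.2% and 9.29% of those never offered to clustering. EPHB1 was at 614, 546, 616, 589 and 589 CPM there against a mean of 43.3 ± 6.14 CPM (log2 fold change 4.37 ± 0.10, edgeR adjusted p = 1.03e-18), and UNC5D at 1468 ± 145 against 175 ± 38.3 CPM (3.19 ± 0.17, edgeR adjusted p = 5.92e-10). Of the 8 plexin and neuropilin genes 6 were higher and 0 lower: PLXNB1 (2.63), PLXND1 (2.60), NRP1 (1.59), NRP2 (1.53), PLXNC1 (1.24) and PLXNA2 (1.12), with overlap for both neuropilins. SEMA3E (-2.18), SEMA5A (-1.83) and UNC5B (-1.60) led the lower genes. Lost in a fit without 1 library were SEMA6A, without 18-month library 1, 2 or 3 (-0.99, -0.95 and -0.95), and NTN4, without 18-month library 2 (-0.81). With putative doublets kept, SLIT2 (-0.97), UNC5C (-0.99), SEMA6A (-0.94) and NTN4 (-0.94) lay under the fold threshold. Of 50 other pathway genes 12 were higher, led by ABLIM1 (4.76) and RGMA (4.38), and 6 lower, led by SRGAP2 (-2.60) and DSCAML1 (-2.04).

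Microglia had 3 genes higher and 13 lower, against 11.1% higher and 14.1% lower of all genes and 13.4% and 16.1% of those never offered to clustering. NRP2 was at 112, 77.95, 163, 136 and 176 CPM against a mean of 36.8 ± 5.28 CPM (log2 fold change 2.50 ± 0.13, edgeR adjusted p = 4.67e-14), NRP1 at 107 ± 48.1 against 33.7 ± 6.41 CPM (2.06 ± 0.18), and PLXND1 was higher with overlap (2.15 ± 0.29). PLXNB1 was called lower on 3 UMIs in all microglia, at 0.762, 0, 1.54, 0 and 0 CPM against a mean of 12.1 ± 2.16 CPM. NTN1 (-4.19), DCC (-2.94) and SEMA5A (-2.85) led the other lower genes. Of 50 other pathway genes 8 were higher, led by SRGAP2 (4.85) and PLXNB2 (2.79), and 24 lower, led by DSCAML1 (-3.39) and FYN (-3.37).

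**Figure D5:**
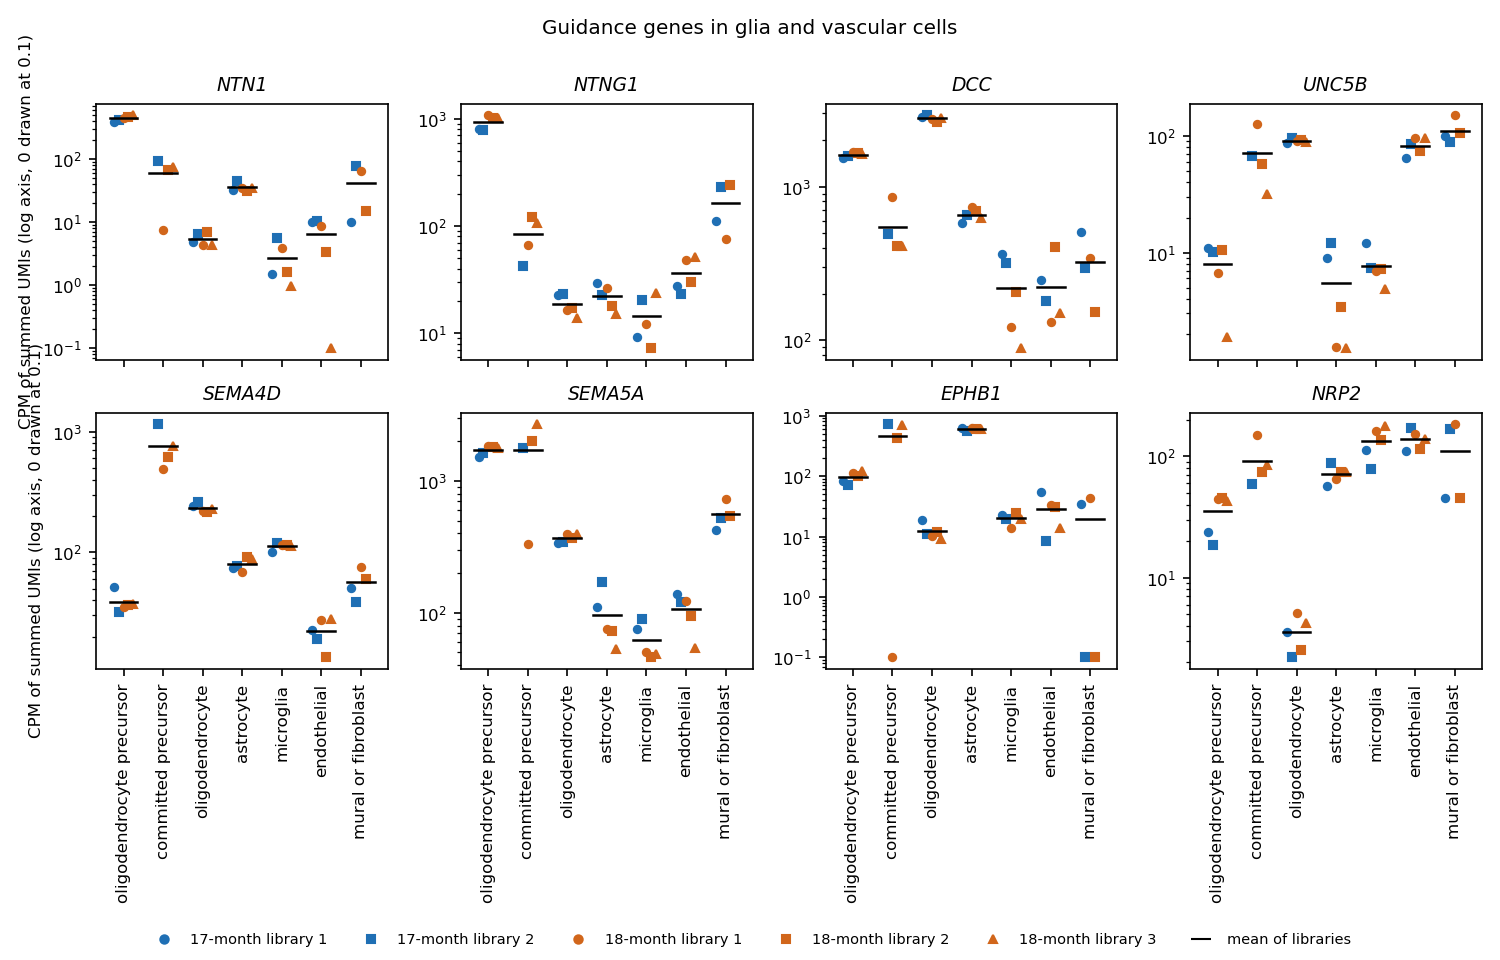
Level in each library (CPM, log axis, zeros drawn at 0.1) of 8 genes in glial and vascular classes. NTN1 and NTNG1 are high in precursors, DCC and UNC5B in oligodendrocytes, EPHB1 in astrocytes and NRP2 in microglia and endothelial cells.

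No test was planned for the vascular classes, and they are described. The mural or fibroblast class held 6 nuclei in its smallest library, under the minimum of 20, and the endothelial class 57. Endothelial cells had the highest NRP1, at 310, 399, 322, 296 and 392 CPM, a gene known as a co-receptor for vascular growth factor, and NRP2 at 138 ± 25.2 CPM. SEMA6A there stood at 496 ± 91.6 CPM, EPHA4 at 420 ± 70.9 CPM and PLXND1 at 55.9 ± 15.1 CPM. Summed astrocyte markers stood in endothelial nuclei at 44.7% and excitatory markers at 32.7% of their own class, and in the mural or fibroblast class at 23.5% and 56.9%, and the part of such RNA in the vascular levels was not tested. The mural or fibroblast class (n = 4) had SEMA3C at 75.3, 552, 162 and 60.5 CPM, NTN4 at 178 ± 161 CPM and SLIT2 at 371 ± 128 CPM, so the SDs of SEMA3C and NTN4 came near or above their means.

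Ligand and receptor pairs were listed side by side, 39 in all. Genes recur among the pairs, and no such count was made for genes that are not partners. In 7 pairs ligand and receptor had the same highest class. These were SLIT2 with ROBO1 in inhibitory neurons, SLIT3 with ROBO2 in striatal projection neurons, SEMA3A with PLXNA1 and with PLXNA4 and EFNA5 with EPHA5 in other excitatory neurons, SEMA3C with PLXND1 in the mural or fibroblast class, and NTNG1 with LRRC4C in oligodendrocyte precursors. For SLIT2, SLIT3, ROBO2, SEMA3A, PLXNA1, EFNA5, SEMA3C and PLXND1 the libraries of the highest class overlapped those of the next class. In claustrum-like neurons SLIT1 (407 ± 58.8 CPM) had its highest mean, overlapping the other excitatory neurons, while ROBO1 and ROBO2 were lower than in the other 3 neuron classes. NTN1 stood between 4.73 and 22.4 CPM in the 4 neuron classes. In these classes its receptors UNC5C and UNC5D were at 311 to 1394 CPM and 118 to 1430 CPM. DCC was at 262.3 to 1163 CPM, UNC5A at 35.87 to 67.96 CPM and UNC5B at 1.309 to 25.01 CPM. Ligand and receptor are different genes, so their levels are not compared with each other. NTNG2 was highest in claustrum-like neurons while its partner LRRC4 was highest in precursors, at 7.84 CPM.

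The animals were compared within classes, with a call at an edgeR adjusted p under 0.05 and no fold threshold. Each age is 1 animal, so age and animal cannot be told apart and p-values measure the spread between libraries. In claustrum-like neurons 5 of 39 guidance genes were lower and 2 higher in the 18-month animal, against 6.79% lower and 6.64% higher of all genes and 7.12% and 6.89% of those never offered to clustering. ROBO3 was at 1.92 and 1.61 CPM in the 17-month libraries and at 0.552, 0.272 and 0.477 CPM in the 18-month libraries (log2 fold change -1.94 ± 0.36, edgeR adjusted p = 0.0093). NRP2 (-1.55), SEMA5A (-1.35), NTN1 (-0.58) and PLXNA1 (-0.48) were lower too, and EFNB2 (0.67) and NTNG1 (1.51) higher, all without overlap. Leaving out a 17-month library leaves 1 library of that animal, which the fit assumes to vary like the 18-month libraries, here and in the classes below. With either 17-month library left out, 0 of these genes passed by edgeR, and SEMA5A was also lost without 18-month library 1 or 2 and NTN1 without 18-month library 1. Of 59 other pathway genes 8 were higher, led by RGMA (1.54) and NTN5 (1.07), and 5 lower, led by RGMB (-0.54) and SEMA6C (-0.46).

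In clusters 2, 6 and 11 alone, 3 of 37 guidance genes were called, beside 8.98% of 10353 genes. EFNB2 (0.65) and NTNG1 (1.65) kept the call and SEMA5B (0.68) gained it, while PLXNA1 (-0.32), SEMA5A (-1.11) and NTN1 (-0.56) did not pass (edgeR adjusted p = 0.074 to 0.0979) and ROBO3 and NRP2 were too low to test. The clusters were also compared one by one. NTNG1 did not move as 1 class: in cluster 1 it was at 9.76 and 8.08 CPM in the 17-month and at 4.66, 5.31 and 4.89 CPM in the 18-month libraries, a log2 fold change of -0.83 (edgeR adjusted p = 0.0487). In cluster 2 it was at 12.8 and 9.51 CPM against 33.1, 35.8 and 43.3 CPM, the opposite direction. PLXNA1 had a log2 fold change of 0.34 in cluster 11 (edgeR adjusted p = 0.815), against its sign in the class. Cluster 4 had 7 called guidance genes of 37 (6.05% of all genes tested there), cluster 1 had 4 of 36 (10.3%), cluster 2 had 2 of 35 (6.42%), cluster 6 had 2 of 35 (5.01%) and cluster 11 had 1 of 28 (0.769%). Claustrum-like nuclei had medians of 12371 and 14621 UMIs in the 17-month and of 16329 to 23623 UMIs in the 18-month libraries. Summed striatal markers in them were at 584 to 598 CPM in the 17-month and 309.5 to 436 CPM in the 18-month libraries, with all 3 markers detected in both. The part of depth and of striatal RNA in these differences was not tested.

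The other excitatory neurons had 1 gene lower, NTN4 (-1.11), and 1 higher, NRP1 (0.39), of 39, against 5.39% lower and 5.26% higher of all genes and 5.59% and 5.42% of those never offered to clustering. Neither passed with either 17-month library or with 18-month library 3 left out. NRP1 was also lost without 18-month library 1, and NTN4 without 18-month library 2, where 4 guidance genes were called in all. Summed striatal markers in these neurons did not overlap between the animals, at 528 to 552 CPM in the 17-month and 406 to 498.5 CPM in the 18-month libraries, and their part was not tested. Of 56 other pathway genes 6 were higher, led by NTN5 (1.02) and SRGAP1 (0.62), and 5 lower, led by MICAL1 (-0.86) and SEMA4B (-0.48).

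Inhibitory neurons had 5 genes lower and 1 higher of 37, against 3.1% lower and 3.14% higher of all genes and 3.51% and 3.39% of those never offered to clustering. NTN4 was at 124 and 133 CPM in the 17-month and 83.3, 96.6 and 87.3 CPM in the 18-month libraries (log2 fold change -0.52 ± 0.077, edgeR adjusted p = 0.000119). SEMA3C (-0.91), EFNB2 (-0.48), EPHA5 (-0.39), SEMA5A (-0.30) and EPHB1 (0.45) were the others. NTN4 alone passed in every fit that left out 1 library. EPHA5 was lost without 17-month library 2 only, EFNB2 without either 17-month library, EPHB1 also without 18-month library 2, and SEMA3C and SEMA5A also without 18-month library 1. Without 17-month library 1 or 2, 3 and 1 guidance genes passed. Of 55 other pathway genes 1 was higher, FARP1 (0.29), and 2 lower, NTNG2 (-0.97) and DPYSL3 (-0.70). Summed excitatory markers in inhibitory neurons did not overlap between the animals. They were at 116.3 to 116.5 CPM in the 17-month and 89.3 to 115 CPM in the 18-month libraries, and their part was not tested.

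Oligodendrocytes had 4 genes lower and 3 higher of 40, against 6.43% lower and 7.87% higher of all genes and 6.94% and 8.06% of those never offered to clustering. SEMA3C was at 31.02 and 27.97 CPM in the 17-month libraries and at 10.7, 9.57 and 6.26 CPM in the 18-month libraries (log2 fold change -1.71 ± 0.18, edgeR adjusted p = 0.000122). EPHB2 was at 43.2 and 45.1 CPM against 73.7, 72.7 and 74.9 CPM (0.75 ± 0.079, edgeR adjusted p = 7.28e-05), UNC5C at 1335 and 1441 CPM against 790, 841 and 895 CPM (-0.70 ± 0.065, edgeR adjusted p = 3.11e-05), and SEMA3E at 195 and 249 CPM against 356, 369 and 393 CPM (0.76 ± 0.11, edgeR adjusted p = 0.00372). These 4 passed in every fit that left out 1 library. NTNG1 (-0.51), ROBO1 (-0.36) and SEMA5A (0.20) did not: NTNG1 and SEMA5A were lost without either 17-month library, ROBO1 without 17-month library 1, and all 3 without 18-month library 1 or 3. Calls came to 4 without 18-month library 1, beside 816 genes in all, and to 18 without 18-month library 2, beside 1587 genes in all. Of 55 other pathway genes 3 were higher, led by RGMA (1.12) and CHN2 (0.23), and 7 lower, led by SEMA4B (-1.30) and FARP1 (-0.74). Summed excitatory markers in oligodendrocytes overlapped between the animals, at 295 to 363 CPM and 317 to 366 CPM. Summed inhibitory markers did not overlap, at 31.2 to 42.6 CPM in the 17-month and 47.4 to 53.98 CPM in the 18-month libraries, and their part in these differences was not tested.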

How the data were processed

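Single-nucleus RNA counts of 5 libraries from macaque claustrum were analysed. The deposited values are unnormalized UMI counts for each gene in each barcode, from Cell Ranger 5.0.1, per the file headers of the matrices; the submitters' processing notes name CASAVA 1.8, Cell Ranger, Seurat, Mmul_10 and mm10, and the authors' barcode filter is not given in the sources used here. The genes and gene lists were chosen with earlier results of these data known.

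Nuclei with at least 500 genes and under 5% mitochondrial UMIs were kept (359 removed, all for genes), and 2555 likely doublets, 0.8% per 1000 nuclei of a library by Scrublet score, were removed. Library medians were 2976 to 3485 UMIs per nucleus. A random set of genes (seed 1), without guidance genes or markers, gave 2000 variable genes, 30 components, a Harmony-style library correction written for this work, 15 neighbours and Leiden clusters (resolution 1.0, then 0.6 within neurons; scanpy 1.11.5, igraph 0.11.9). Naming thresholds were set after clusters were seen: a marker score of at least 0.6, a margin of 0.15 (broad) or 0.1 (subtypes), and at least a share of 0.6 and 3 of the markers on. No name was given to 2210 nuclei, 1866 of them in a cluster of low UMIs, and 164 excitatory, 102 inhibitory and 130 striatal nuclei were set aside.

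Counts were summed per library and class (at least 20 nuclei) and tested with edgeR 4.0.16 in R 4.3.3 (TMM, filterByExpr, robust quasi-likelihood, Benjamini-Hochberg), with the library as a block between cell types and without one between animals; 4749 genes used for clustering or naming were left out of the tests. The SE is the absolute log2 fold change divided by the square root of F. Libraries, not animals, were the repeats in all fits. The fit was also run on simulated counts with known changes. These had the same spread for every gene, no library effect and no low genes, so the run says nothing on those features of the data. Alternatives were DESeq2 1.42.0, no filter on low counts, at least 1000 genes per nucleus, doublets kept, the block added or removed, each library left out, and other clusters or references; those by cluster, of clusters 2, 6 and 11 alone, against clusters 3 and 5, and with a cluster led by oligodendrocyte markers were added after seeing the data. Named are all called guidance genes and up to 2 further pathway genes in each direction per comparison; single clusters, subtypes and vascular values were chosen after they were seen. The files give no genome coordinates, and no sequences are shown.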

Additional observations from a re-analysis of the deposited data

Results flagged for a closer look

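Of 152 called cell type differences of guidance genes, 5 had 1 library apart from the other 4 relative to their range, where chance alone marks about 1 in 20. On the scale of log2(CPM + 1), the excitatory minus inhibitory difference of ROBO3 was 0.78 in 18-month library 1 and between 1.38 and 1.60 elsewhere. For striatal projection neurons against the other neurons, NTN1 was at -2.15 in 17-month library 2 and -1.54 to -1.32 elsewhere, and EPHB2 was at -1.35 in 18-month library 3 and -1.25 to -1.21 elsewhere. SEMA3E in direct against indirect striatal neurons was at 2.75 in 18-month library 1 and 0.080 to 0.84 elsewhere. ROBO1 in astrocytes against the other glia was at -2.10 in 18-month library 3 and -1.28 to -1.06 elsewhere.

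Other cell type differences were not the same size in both animals, by the interaction of animal and cell type in edgeR (adjusted p under 0.05 over all genes). Values are the difference in the 18-month animal minus that in the 17-month animal, on the log2 scale, and libraries of an animal are its only repeats. For claustrum-like against other excitatory neurons 0 of the guidance genes passed, beside 98 of 10848 genes. Excitatory against inhibitory neurons differed for SEMA5A (-0.48) and EFNB2 (0.88), beside 135 of 11057 genes. CGE-like against MGE-like neurons differed for 6 guidance genes, beside 25 of 8639 genes: NTNG1 (1.06), SEMA5B (-2.41), SLIT2 (0.78), SEMA3E (1.57), SEMA5A (0.98) and NTN1 (-1.57). The difference of SEMA5B was 3.69 and 3.64 in the libraries of the younger animal and 2.24, 1.14 and 1.32 in those of the older on the log2(CPM + 1) scale.

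For striatal projection neurons against the other neurons, PLXND1 (1.85), SEMA5B (-1.28), SEMA3D (-2.83) and EPHA4 (1.00) differed, beside 412 of 10248 genes. EPHA4 was at -1.35 and -1.30 in the 17-month and -0.42 to -0.33 in the 18-month libraries. Direct against indirect neurons differed for SLIT2 (0.65) and UNC5C (0.48), beside 10 of 8213 genes.

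Among glia, 222 of 9000 genes passed for astrocytes, 423 for oligodendrocytes, 145 for precursors and 331 for microglia. The astrocyte difference changed for SEMA5A (-0.85), SEMA6A (-0.50) and EFNB2 (1.39). The oligodendrocyte difference changed for PLXNA2 (-0.56), EPHA5 (-0.42), SEMA3E (1.504), SEMA3C (-1.62), SEMA5A (0.72), SEMA6A (0.34) and UNC5B (1.15). SEMA3C was higher in oligodendrocytes than in the other glia in both 17-month libraries (0.49 and 0.73) and lower in all 3 18-month libraries (-1.34 to -0.78). The precursor difference changed for EPHB1 (0.69), ROBO1 (0.85), SLIT2 (0.88), EPHA5 (0.61), SEMA3C (1.14) and SEMA5A (0.70), and the microglial difference for ROBO1 (-0.83), SEMA5A (-0.57) and DCC (-1.37). The 4 glial contrasts share 1 fit and their sums, so a change in 1 class enters the others.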

How the results depend on the processing

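Over the planned and added alternatives, single guidance genes kept direction and call in 1542 values of cell type comparisons, lost the call in 58, gained it in 33 and reversed in 0. Between animals the numbers were 171, 79, 60 and 2, the reversals being NTNG1 in excitatory cluster 1 (-0.83) and PLXNA1 in excitatory cluster 11 (0.34). Doublets kept moved 18 of 440 levels by more than 1 SD.

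With each library left out, all called genes ranged from 746 to 810 (claustrum-like), 1481 to 1593 (excitatory against inhibitory), 513 to 568 (CGE-like) and 1990 to 2143 (striatal). They ranged from 61 to 92 (direct), 1651 to 1753 (astrocytes), 1705 to 1790 (oligodendrocytes), 1416 to 1548 (precursors) and 2209 to 2363 (microglia). Called guidance genes ranged from 19 to 21 (claustrum-like), 19 to 22 (excitatory against inhibitory), 10 to 13 (CGE-like), 22 to 24 (striatal), 4 to 5 (direct), 18 to 21 (astrocytes), 15 to 18 (oligodendrocytes), 17 to 19 (precursors) and 16 to 18 (microglia). Between animals they ranged from 0 to 10 in claustrum-like, 0 to 4 in other excitatory, 1 to 7 in inhibitory neurons and 4 to 18 in oligodendrocytes, and all called genes from 200 to 1814, 174 to 1430, 196 to 626 and 701 to 1587. Single clusters called 4 (cluster 1), 2 (clusters 2 and 6) and 1 (cluster 11) guidance genes, and 993, 622, 606, 453 and 47 genes in all in clusters 1, 2, 4, 6 and 11. Clusters 2, 6 and 11 summed called 3 guidance genes and 930 genes in all between animals. DESeq2 called 3 guidance genes and 198 genes in inhibitory neurons and 861 genes in oligodendrocytes. With no filter on low counts 11 guidance genes passed in inhibitory neurons and 113 genes between direct and indirect neurons. The count over all genes in inhibitory neurons then stayed within a factor of 1.5 of the main fit. The cause was not tested.

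The replicate block gave 12 called guidance genes in claustrum-like neurons, 4 in other excitatory neurons and 4 in oligodendrocytes (517 genes in all). In both neuron classes the count over all genes stayed within a factor of 1.5 of the main fit. The direct against indirect comparison had 3 called guidance genes with no replicate block, with the count over all genes again within that factor. Only 2 numbers are shared by the animals and nothing states that they pair libraries; same-numbered libraries correlated at -0.16, 0.16, 0.0077 and -0.098 in claustrum-like, other excitatory and inhibitory neurons and oligodendrocytes. Depth limits the committed precursor and mural or fibroblast values, and genes near 1 CPM such as ROBO3 and NRP2 in claustrum-like neurons.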
